A study of Homo sapiens with 4 samples.

Results

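The genes described here are 37 members of growth factor signalling: 13 receptors and co-receptors (EGFR, ERBB2, ERBB3, MET, FGFR1, FGFR2, FGFR3, FGFR4, KLB, AXL, DDR1, EPHA2 and EPHB4), 7 members of the RAS to ERK cascade, 11 members of the PI3K to mTOR branch, and 6 feedback inhibitors (DUSP1, DUSP4, DUSP6, SPRY2, SPRY4 and SPRED1). They were taken by gene symbol, from a list chosen with earlier results of these data known, and all 37 are among the 20226 genes listed. RNA sequencing compared Huh7 cells, an established line from a human hepatocellular carcinoma, in 2 states: NUP210 knocked down by a hairpin (shNUP210, 2 libraries) and a control hairpin (shCon, 2 libraries). NUP210 encodes a membrane glycoprotein of the nuclear pore, and the series set out to measure how its knockdown alters expression genome-wide. Total RNA was taken with Trizol and made into libraries with a TruSeq RNA kit. The labels give the shCon cells the genotype wild type and all cells as untreated, and name neither the hairpin sequence, the number of clones nor the time after knockdown.

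Receptor tyrosine kinases bind growth factors outside the cell and, once paired and phosphorylated, load RAS with GTP and recruit PI3K. RAS starts the RAF, MEK and ERK kinase cascade, while PI3K makes the lipid that activates AKT and, through loss of TSC restraint, mTOR. Active ERK also induces its own inhibitors, the dual-specificity phosphatases (DUSP) and the Sprouty and SPRED proteins, so that transcripts of these feedback genes are often read as an output of the cascade. In hepatocytes FGFR4 with its co-receptor KLB senses the gut hormone FGF19 and restrains bile acid synthesis, and EGFR and MET carry the main signals for liver regeneration.

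Values are in TPM, a length-corrected unit in which levels of different genes can be set side by side. The knocked-down gene NUP210 fell to 10.1 and 9.85 TPM in shNUP210, against 32.8 and 27.3 TPM in shCon (log2 fold change -1.49, SE 0.24, limma adjusted p = 0.043). In the shNUP210 libraries 14564 and 14405 genes reached 1 TPM, against 13920 and 13675 genes in the shCon libraries, and read depth is not kept in TPM. Of 10 hepatocyte and hepatoma markers all were listed, at means of 138 to 5760 TPM, with 0 called higher and 3 called lower (APOA1, TF and SERPINA1). None of 4 endothelial markers was listed. Of the leukocyte markers reported here CD14 and LYZ were listed, summing to 34.3 and 23.3 TPM in shNUP210 and 135 and 134 TPM in shCon, and PTPRC and CD3E were not; LYZ fell (adjusted p = 0.0098). Of 6 fibroblast markers 5 were listed, summing to 36.7 and 19.2 TPM in shNUP210 and 10.7 and 15.2 TPM in shCon (THY1 was at 0 in 3 libraries). COL1A1 was at 18.9 and 7.55 TPM in shNUP210 and 1.25 and 3.80 TPM in shCon, 5.24-fold higher (adjusted p = 0.14), and reached the level required for testing only through shNUP210. COL3A1 and LUM, both under that level, also had both shNUP210 libraries above both shCon libraries, with means 3.72-fold and 1.62-fold higher. PDGFRB, the other fibroblast marker tested, had overlapping groups (1.26-fold, limma adjusted p = 0.69), and DCN was not listed. The part of these markers in the results below was not tested, and in bulk RNA fewer cells of a type and less RNA per cell cannot be told apart. The labels do not state separate cultures for replicates, so a p-value here reflects only how far these 4 libraries scatter, and that scatter may be technical.

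DUSP1, a feedback phosphatase, rose 2.34-fold in shNUP210 cells, and it was the single member of this signalling network called. Genes were tested with limma on log2(TPM + 1) when at least 2 libraries reached 5 TPM, and a call is a Benjamini-Hochberg adjusted p under 0.05 over all 10140 genes tested. Of the 37 members 32 were tested, and 1 was called higher and 0 lower (3.12%), against 2.86% of all tested genes called in either direction with 1.79% called higher and 1.07% called lower, so the members were called at about the share of all genes. FGFR2, AXL, PIK3CA, RICTOR and SPRED1 were below the level required for testing, and PIK3R1 passed it only through the shNUP210 libraries. Another 5 members (EGFR, ERBB3, FGFR3, EPHA2 and DUSP4) had an unadjusted p under 0.05, all of them with the higher values in shNUP210, which made 6 higher and 0 lower of 32. Among all tested genes 18.4% were higher and 5.95% lower at that level. Both shNUP210 libraries lay above both shCon libraries for 13 of the 32 members (40.6%), against 42.9% of all tested genes, and below them for 2 (6.25%), against 14.3%. Calls over all genes were 181 higher and 109 lower in TPM as deposited, and 72 higher and 260 lower after trimmed-mean scaling. Over those genes log2 fold change had a median of 0.23 as deposited and -0.01 after that scaling, so a member at 0 lay below the middle of the tested genes.

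**Figure D1:**
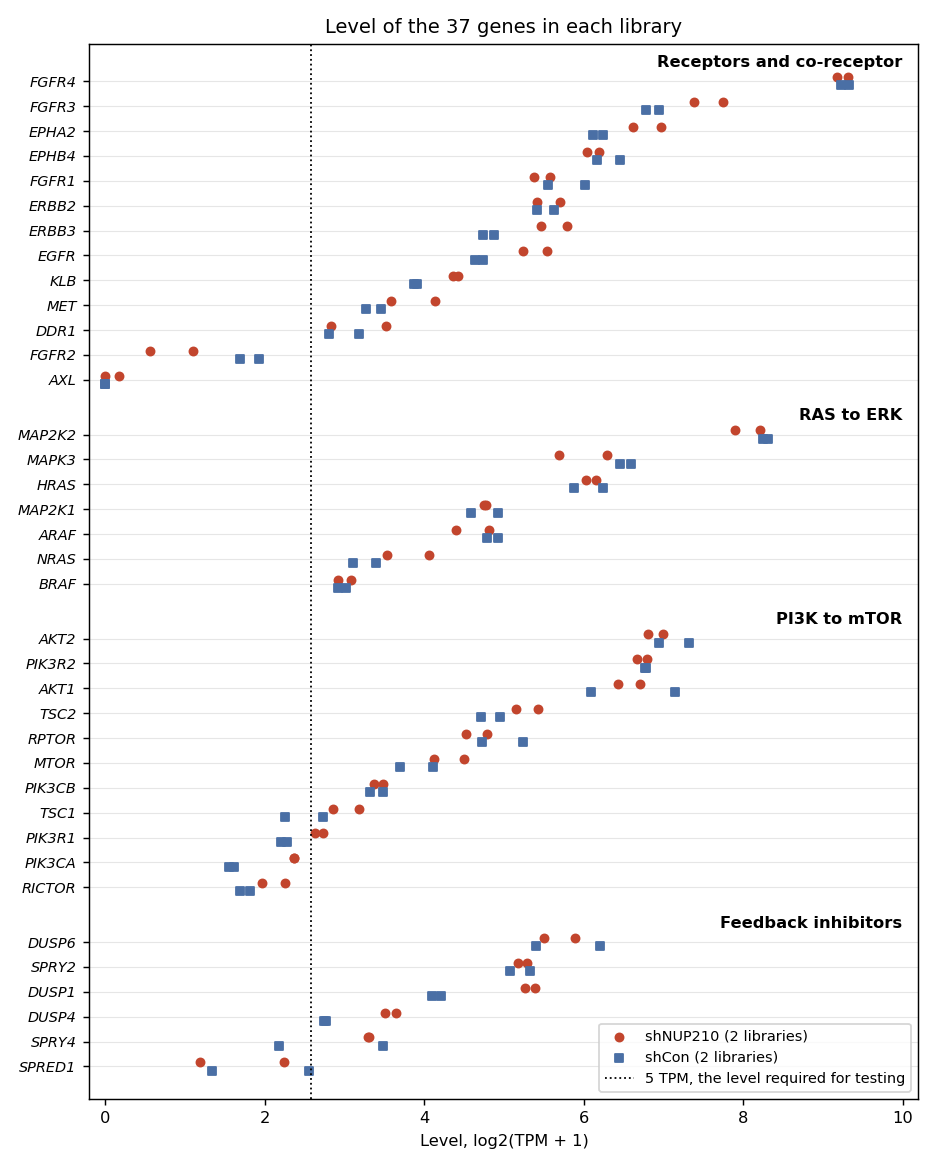
Level of each of the 37 genes as log2(TPM + 1), by role and in order of level; each point is a library, with shNUP210 (red circles, upper) and shCon (blue squares, lower), and the dotted line marks 5 TPM. FGFR4 stands highest at 580 to 642 TPM, AXL is at or near 0, and the groups stand apart for DUSP1.

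Among the receptors of the EGF family, EGFR and ERBB3 had higher values in shNUP210 cells and ERBB2 did not. EGFR, the receptor for EGF and TGF-alpha, was at 36.8 and 45.7 TPM in shNUP210 and 25.6 and 24.0 TPM in shCon. Both knockdown libraries lay above both control libraries, with a log2 fold change of 0.70 (SE 0.20, limma adjusted p = 0.12). ERBB3, the neuregulin receptor that couples its partners to PI3K, was at 54.2 and 43.2 TPM in shNUP210 and 28.3 and 25.6 TPM in shCon. It had the largest fold of any tested receptor, 1.81-fold (log2 0.82, SE 0.20), and did not pass (adjusted p = 0.090). ERBB2, the ligand-less partner of both, was at 41.7 and 51.1 TPM in shNUP210 and 48.6 and 41.7 TPM in shCon, where the groups overlap (adjusted p = 0.93). ERBB2 took 31.4 and 36.5% of the summed TPM of these genes in shNUP210, against 47.4 and 45.7% in shCon. Its share was lower in each knockdown library than in either control library, and a share within a library does not depend on the scaling between libraries.

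FGFR4 was the most abundant of the 37 genes and its TPM as deposited hardly differed between the groups, while FGFR3 had higher values in shNUP210. FGFR4 was at 637 and 580 TPM in shNUP210 and 642 and 600.5 TPM in shCon, a mean level at percentile 98.9 of the listed genes. Its log2 fold change was -0.03 (SE 0.09, adjusted p = 0.86), and the groups overlap. That value depends on the scaling: FGFR4 had -0.30 after trimmed-mean scaling (limma adjusted p = 0.13) and -0.07 under quantile normalization (adjusted p = 0.74). FGFR3, a receptor of the same family best known from bone growth, was at 166 and 213 TPM in shNUP210 and 122 and 109 TPM in shCon. Both knockdown libraries were above both controls, with a log2 fold change of 0.70 (SE 0.16, adjusted p = 0.080). FGFR1 was at 40.6 and 46.7 TPM in shNUP210 and 45.9 and 63.8 TPM in shCon (adjusted p = 0.42). FGFR2, the family member with the lowest level, was at 1.14 and 0.48 TPM in shNUP210 and 2.23 and 2.81 TPM in shCon and was not tested. Both knockdown libraries lay below both controls, with a mean 0.321 times that of shCon. When genes with 1 TPM in 2 libraries were admitted its log2 fold change was -0.98 (limma adjusted p = 0.28). FGFR4 therefore made up 75.4 and 69.0% of the FGFR1 to FGFR4 sum in shNUP210 and 79.1 and 77.3% in shCon, and FGFR3 19.6 and 25.4% in shNUP210 and 15.0 and 14.1% in shCon. KLB, which lets FGFR4 bind FGF19, was at 20.4 and 19.6 TPM in shNUP210 and 13.6 and 14.1 TPM in shCon. The groups did not overlap and replicates were close, and KLB did not pass (log2 0.50, SE 0.23, adjusted p = 0.25). FGF19, the hormone ligand itself, was at 28.7 and 25.9 TPM in shNUP210 and 30.6 and 31.2 TPM in shCon (adjusted p = 0.60).

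The other receptors ranged from EPHA2, the most abundant, to AXL at almost none. EPHA2, a receptor for membrane-bound ephrins that is itself induced by ERK signalling, was at 125 and 97.4 TPM in shNUP210 and 68.3 and 75.0 TPM in shCon. Both knockdown libraries were above both controls (log2 0.62, SE 0.17, adjusted p = 0.11). EPHB4, which binds ephrin-B2, was at 72.3 and 65.2 TPM in shNUP210 and 86.5 and 70.7 TPM in shCon, with overlapping groups (adjusted p = 0.52). MET, the receptor for hepatocyte growth factor, was at 11.0 and 16.5 TPM in shNUP210 and 8.61 and 9.97 TPM in shCon. Its groups did not overlap, and shNUP210 replicate 1 lay closer to the nearer control library than to shNUP210 replicate 2 (log2 0.50, SE 0.32, adjusted p = 0.38). DDR1, a collagen receptor, was at 6.11 and 10.4 TPM in shNUP210 and 5.98 and 8.08 TPM in shCon (adjusted p = 0.81). AXL, the receptor for GAS6, was listed at 0 in 3 libraries and at 0.13 TPM in shNUP210 replicate 2.

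The RAS to ERK cascade had 0 of 7 members called, against 2.86% of all tested genes, so the count does not set the cascade apart. Its values lay close to each other in the 2 groups for most genes. Of the RAS genes NRAS was at 15.7 and 10.6 TPM in shNUP210 and 7.65 and 9.52 TPM in shCon (log2 0.54, SE 0.33, adjusted p = 0.36). HRAS, the more abundant of the pair, was at 70.5 and 64.3 TPM in shNUP210 and 58.1 and 74.7 TPM in shCon (adjusted p = 0.94). The RAF kinases BRAF and ARAF had overlapping groups, at means of 7.04 and 23.6 TPM in shNUP210 and 6.84 and 28.0 TPM in shCon. MAP2K2, encoding MEK2, was at 295 and 237 TPM in shNUP210 and 303 and 316 TPM in shCon, so that the groups did not overlap (log2 -0.23, SE 0.13, adjusted p = 0.34). MAP2K1, encoding MEK1, was at 26.0 and 26.3 TPM in shNUP210 and 29.4 and 23.1 TPM in shCon (adjusted p = 0.99). MAPK3, encoding ERK1, had the lowest log2 fold change of the tested members. It was at 77.5 and 50.8 TPM in shNUP210 and 96.0 and 86.7 TPM in shCon, both knockdown libraries lying below both controls (log2 -0.53, SE 0.23, adjusted p = 0.22). After trimmed-mean scaling its log2 fold change was -0.79, and with the trend with transcript GC and length removed -0.37, without a call in either.

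The PI3K to mTOR branch had 0 of 9 tested members called, against 2.86% of all tested genes, so the count does not set the branch apart. PIK3CA, encoding the p110-alpha catalytic subunit, was at 4.15 and 4.14 TPM in shNUP210 and 2.07 and 1.94 TPM in shCon, a 2.07-fold higher mean with close replicates. It was below the level required for testing, and when genes with 1 TPM in 2 libraries were admitted its log2 fold change was 0.78 (limma adjusted p = 0.31). Exons of KCNMB3 on the opposite strand cover 35.8% of the PIK3CA exon bases, and no source used here states strand-aware counting, so reads of the 2 genes may be shared. KCNMB3 was at 0.80 and 2.26 TPM in shNUP210 and 1.53 and 1.57 TPM in shCon. By single partner, smaller overlaps cover up to 11.5% of the exon bases of MAP2K1, 5.5% of ERBB2, 5.3% of BRAF and 4.0% of TSC2. The values of these genes carry the same uncertainty, and MAP2K1, ERBB2 and TSC2 each have a further partner. NDUFB2, the partner of BRAF, was at 355 and 274 TPM in shNUP210 and 372 and 393 TPM in shCon. BRAF itself was at means of 7.04 and 6.84 TPM, so shared reads could weigh more on its values. PIK3CB, encoding p110-beta, was at 10.2 and 9.32 TPM in shNUP210 and 10.2 and 9.03 TPM in shCon (adjusted p = 0.98). PIK3CA made up 28.9 and 30.8% of the PIK3CA and PIK3CB sum in shNUP210, against 16.9 and 17.7% in shCon.

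The regulatory subunit PIK3R2 (p85-beta) far outweighed PIK3R1 (p85-alpha) in Huh7. PIK3R2 was at 110 and 101 TPM in shNUP210 and 110 and 108 TPM in shCon (log2 -0.05, SE 0.12, adjusted p = 0.84). PIK3R1 was at 5.19 and 5.66 TPM in shNUP210 and 3.62 and 3.86 TPM in shCon (log2 0.44, SE 0.41, adjusted p = 0.54). The 2 knockdown libraries were above the controls for PIK3R1, whereas the PIK3R2 groups overlap.

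AKT1 and AKT2, the kinases activated by PI3K, did not differ beyond their spread. AKT1 was at 85.2 and 104 TPM in shNUP210 and 141 and 67.1 TPM in shCon, so the control libraries lay on either side of the knockdown libraries (adjusted p = 0.95). Without shCon replicate 1 its log2 fold change was 0.48 and without shCon replicate 2 it was -0.58. The opposite-strand gene RP11-982M15.2, at 376 and 430 TPM in shNUP210 and 436 and 378 TPM in shCon, overlaps 5.9% of the AKT1 exon bases. AKT2 was at 111 and 127 TPM in shNUP210 and 158 and 122 TPM in shCon (adjusted p = 0.44).

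Of the mTOR complex genes, MTOR, the kinase, was at 21.6 and 16.5 TPM in shNUP210 and 16.3 and 12.0 TPM in shCon (adjusted p = 0.42). RPTOR, which defines the nutrient-sensing complex, was at 26.6 and 22.1 TPM in shNUP210 and 36.9 and 25.4 TPM in shCon (adjusted p = 0.47). RICTOR, which defines the AKT-phosphorylating complex, was at 3.77 and 2.92 TPM in shNUP210 and 2.51 and 2.24 TPM in shCon and was not tested. RICTOR and MTOR had both knockdown libraries above both controls, and RPTOR had overlapping groups. TSC2, the GTPase-activating subunit that restrains mTOR, was at 41.9 and 34.4 TPM in shNUP210 and 29.8 and 25.2 TPM in shCon (log2 0.45, SE 0.21, adjusted p = 0.25). Its partner TSC1 was at 6.23 and 8.09 TPM in shNUP210 and 5.63 and 3.78 TPM in shCon (log2 0.53, SE 0.40, adjusted p = 0.46). For both TSC genes the knockdown libraries lay above the controls.

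**Figure D2:**
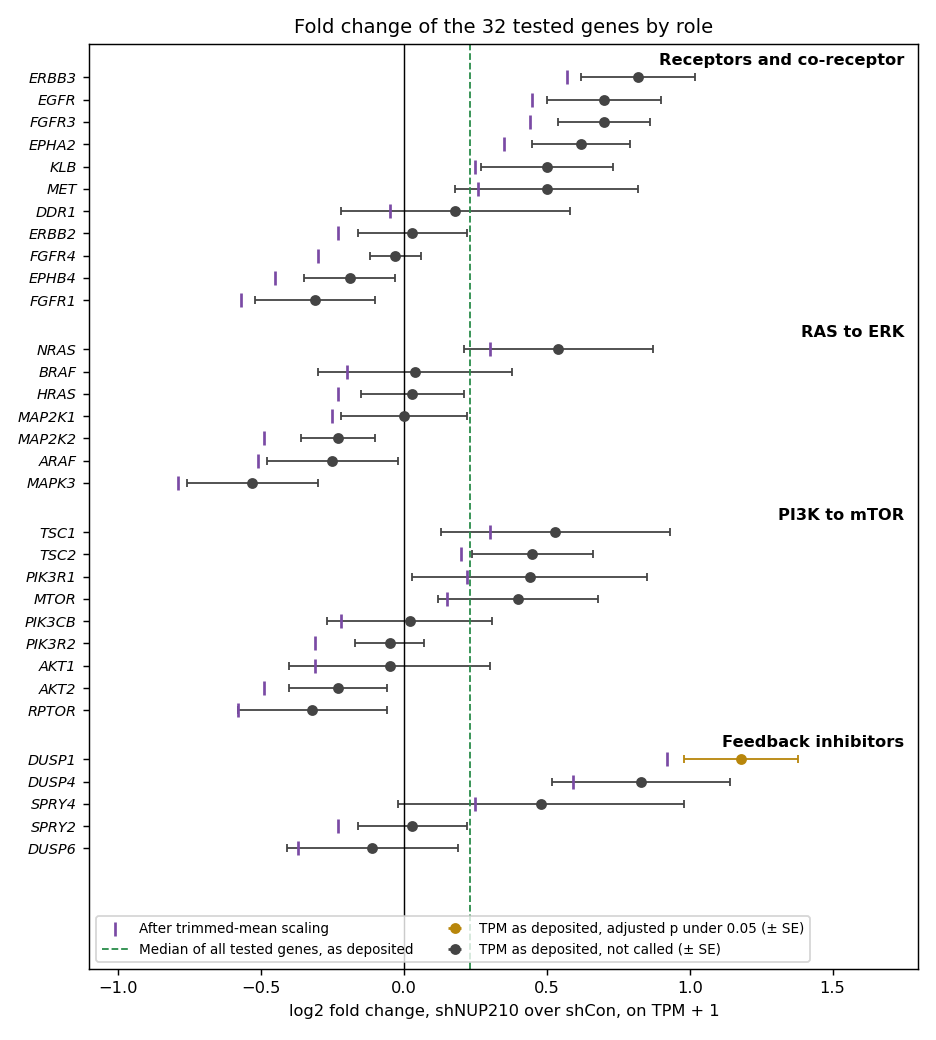
log2 fold change of the 32 tested genes on TPM + 1, shNUP210 over shCon, by role; points with bars are TPM as deposited ± SE, gold for an adjusted p under 0.05, purple ticks are values after trimmed-mean scaling, and the dashed line is the median of all tested genes (0.23). DUSP1 at 1.18 is the only gold point, and trimmed-mean scaling moves every gene to the left.

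The feedback inhibitors did not move as a group: DUSP1 rose, DUSP4 had higher values without passing, and DUSP6 and SPRY2 had overlapping groups. DUSP1 (ENSG00000120129, GRCh38 chromosome 5, 172768090 to 172771195, minus strand, protein-coding) encodes a nuclear phosphatase that switches off ERK, p38 and JNK and is an immediate early gene of stress and growth factors. It was at 40.9 and 37.5 TPM in shNUP210 and 17.4 and 16.1 TPM in shCon. The groups were well apart and replicates close, with a log2 fold change of 1.18 (SE 0.20, limma adjusted p = 0.049). The call is marginal: it held in 1 of 17 alternatives (a filter on a mean of 5 TPM, adjusted p = 0.045), and the adjusted p over all alternatives ranged from 0.045 to 0.19, with log2 fold changes of 0.89 to 1.24. Trimmed-mean scaling gave an adjusted p of 0.069, the replicate block 0.089, and fits without a library 0.15 to 0.19.

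DUSP4, a nuclear phosphatase of the same family, was at 10.4 and 11.6 TPM in shNUP210 and 5.72 and 5.80 TPM in shCon, a 1.91-fold higher mean (log2 0.83, SE 0.31, adjusted p = 0.19). DUSP6, the cytoplasmic phosphatase specific for ERK, was at 44.2 and 58.6 TPM in shNUP210 and 41.3 and 72.7 TPM in shCon. The 2 shCon libraries enclose both knockdown libraries for DUSP6 (adjusted p = 0.86). SPRY2, which blocks signalling from receptors to RAS, was at 38.0 and 35.3 TPM in shNUP210 and 39.1 and 32.8 TPM in shCon (adjusted p = 0.94). SPRY4 was at 8.94 and 8.83 TPM in shNUP210, with shCon libraries of 10.2 and 3.51 TPM on either side (adjusted p = 0.59). SPRED1, an adaptor that brings the RAS inhibitor neurofibromin to the membrane, was at 3.73 and 1.27 TPM in shNUP210 and 4.86 and 1.54 TPM in shCon and was not tested. DUSP1 took 42.8 and 34.8% of the DUSP1, DUSP4 and DUSP6 sum in shNUP210 and 27.1 and 17.0% in shCon, and DUSP6 took 46.3 and 54.4% in shNUP210 and 64.1 and 76.8% in shCon.

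The start of DUSP1 is shown because DUSP1 is the member called, with EPHA2 beside it because these were the 2 members whose upstream bases hold a full cyclic AMP response element, TGACGTCA. The RefSeq promoter sequences (GRCh38.p14) gave 34 members, each read over the 250 bases before the start farthest upstream. Capitals mark that element, its short form TGACG on either strand (CGTCA on the other), which the full element contains, and the TATA box TATAAA. The DUSP1 bases lie at chr5:172771196-172771445 and the EPHA2 bases at chr1:16156070-16156319, both on the minus strand and written 5′ to 3′ along the gene.
DUSP1: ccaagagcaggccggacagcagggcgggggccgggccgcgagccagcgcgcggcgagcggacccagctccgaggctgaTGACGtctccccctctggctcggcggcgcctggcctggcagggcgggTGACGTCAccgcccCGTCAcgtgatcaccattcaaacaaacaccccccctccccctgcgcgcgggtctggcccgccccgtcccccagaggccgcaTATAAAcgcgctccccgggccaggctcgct
EPHA2: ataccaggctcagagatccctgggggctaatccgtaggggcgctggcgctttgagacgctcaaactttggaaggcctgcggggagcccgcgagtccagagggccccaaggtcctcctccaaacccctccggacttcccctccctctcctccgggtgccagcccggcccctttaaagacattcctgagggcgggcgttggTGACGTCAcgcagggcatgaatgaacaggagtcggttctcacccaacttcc
In DUSP1 the full element lies 125 to 118 bases before the start, with further short forms at 172 to 168 and 111 to 107 and the TATA box at 30 to 25. In EPHA2 the full element lies 51 to 44 bases before the start. Over all 27305 promoters of this length, 1.75% hold the full element, 21.6% the short form and 11.2% the TATA box on either strand, and among the 34 members the counts were 2, 10 and 2. The AP-1 site TGANTCA was found in 1 member (ERBB2) and 6.57% of all promoters, the TEAD site GGAATG in 2 (ARAF and EPHA2) and 12.0%, the ETS core CGGAAG in 8 and 16.7%, and the CArG box of serum response factor in 0 and 1.15%. These are matches of letters and say nothing of binding in these cells.

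Set against each other, tested receptors had a median log2 fold change of 0.50 (11 genes) and feedback inhibitors 0.48 (5 genes), while the RAS to ERK genes had 0.00 (7 genes) and the PI3K to mTOR genes 0.02 (9 genes), with 0.23 for all tested genes. Of the tested receptors, ERBB3, EGFR, FGFR3, EPHA2, KLB and MET had higher values, at 0.50 to 0.82. FGFR1, EPHB4, FGFR4, ERBB2 and DDR1 ran from -0.31 to 0.18, and FGFR2, with lower values in shNUP210, was not tested. No test of this contrast between roles was made. Receptors and feedback genes stayed above both kinase groups under the 4 other scalings. After trimmed-mean scaling the medians were 0.25 for receptors, 0.25 for feedback genes, -0.25 for RAS to ERK and -0.22 for PI3K to mTOR. Trimmed-mean, median-ratio and upper-quartile scaling multiply all values of a library by the same factor, so the order of these medians could hardly change. Quantile normalization, which can change the order, gave 0.21, 0.18, -0.26 and -0.19 in the same sequence. The order did not hold when every listed gene was admitted. Receptors then had 0.18 (13 genes, now with FGFR2 and AXL) and PI3K to mTOR 0.36 (11 genes, now with PIK3CA and RICTOR). Nor did it hold with the filter of 1 TPM in 2 libraries, where receptors had 0.34, feedback genes 0.26 and PI3K to mTOR 0.36. Without shNUP210 replicate 2 the receptor median was 0.23, and without shCon replicate 1 the PI3K to mTOR median was 0.40, against 0.41 for receptors, so that single libraries move these medians.

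The fold changes also ran with properties of the transcripts, whose part in these results was not tested. Over 9980 tested genes, log2 fold change had a Spearman rho of -0.27 with transcript GC content and 0.15 with transcript length, and over 10140 genes -0.16 with mean level; across the 32 members the values were -0.31, 0.47 and -0.39. These are descriptions across genes, which share the 4 libraries and are not independent. Split by GC into 4 bins of equal size, tested genes had a median of 0.39 in the lowest bin (29.4 to 44.9%) and 0.04 in the highest (58.3 to 76.2%). Of the tested members 14 were in that GC-rich bin, and they had a median at 0.00. Among them were MAP2K2, HRAS, AKT1 and PIK3R2, and also the receptors FGFR3 (0.70) and EPHA2 (0.62), which had higher values. With the trend removed, EGFR (0.64), ERBB3 (0.79), FGFR3 (0.81), EPHA2 (0.77) and DUSP1 (1.16) had log2 fold changes of 0.64 or more. MET (0.34), NRAS (0.34), KLB (0.32) and PIK3R1 (0.29) were closer to the middle of all genes (0.24) than as deposited. The receptor median was then 0.34, against 0.50 as deposited.

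**Figure D3:**
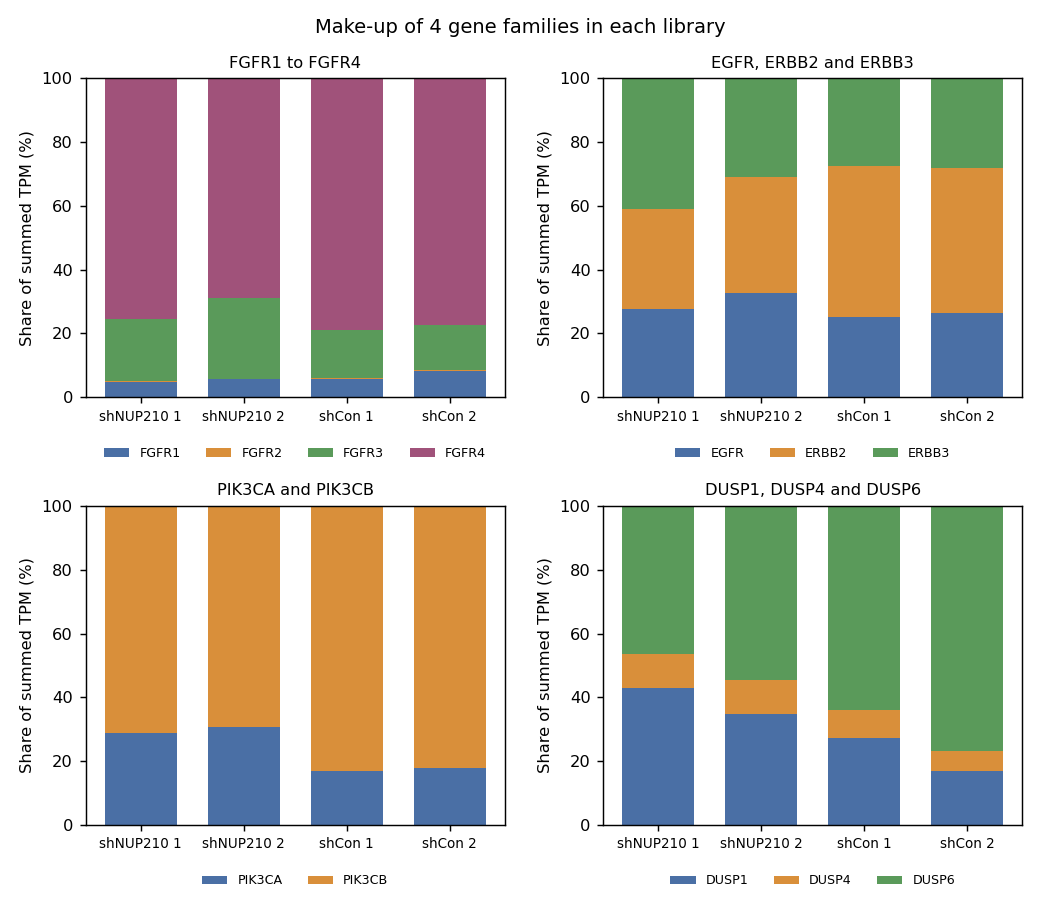
Share of each gene in the summed TPM of its family, in percent, for each library, with the shNUP210 libraries to the left of the shCon libraries. FGFR4 takes 69.0 to 79.1% of the FGFR sum everywhere, and ERBB2, PIK3CB and DUSP6 take smaller shares in the shNUP210 libraries than in the shCon libraries.

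Members of a family were also compared as log2 ratios of TPM + 1 within each library. In 10 of 18 such pairs the shNUP210 libraries stood apart from the shCon libraries, which is near the share of single genes that did so (42.9% above and 14.3% below). The log2 ratio of PIK3CA to PIK3CB was -1.12 and -1.01 in shNUP210 and -1.87 and -1.77 in shCon, a difference of 0.76 with a pooled SD of 0.08. The added 1 TPM weighs on these low levels, and the difference was 0.87 with a pseudocount of 0.5 and 0.99 with 0.1. For ERBB2 to EGFR the ratio was 0.17 and 0.16 in shNUP210 and 0.90 and 0.78 in shCon, a difference of -0.67 with a pooled SD of 0.06. These differences exceed the spread of the libraries. The ratio of FGFR4 to FGFR3 differed by -0.73, that of EPHA2 to EPHB4 by 0.80 and that of RPTOR to RICTOR by -0.68, with pooled SDs of 0.20 to 0.25. AKT1 to AKT2, TSC1 to TSC2, MAP2K1 to MAP2K2 and SPRY2 to SPRY4 overlapped. With 2 libraries a group the exact two-sided permutation test cannot go below p = 0.33, which was the value of each pair that stood apart, so none of the 18 can pass.

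Other genes of the network were counted from lists of fixed membership, where 2.86% of all tested genes were called. Of 32 ligand genes 23 were listed and 9 tested, with 0 called; 6 stayed under 1 TPM in every library, EGF, TGFA and HGF were not listed, and MST1 (mean 40.5 TPM) and VEGFA were among those tested. VEGFA was at 57.0 and 65.3 TPM in shNUP210 and 43.2 and 29.9 TPM in shCon (adjusted p = 0.13). Of 31 other receptor genes 15 were listed and 6 tested, of 24 adaptors, exchange factors and GTPase-activating proteins 12 were tested, and of 17 other RAS to ERK genes 15, with 0 called in each. Of 32 other PI3K to mTOR genes 20 were tested and 0 called in TPM as deposited. After trimmed-mean scaling 2 of these were called lower, EIF4EBP1, the translation repressor that mTOR phosphorylates (227 and 239 TPM in shNUP210, 317 and 331 TPM in shCon), and RPS6KB2, an S6 kinase (252 and 268 TPM in shNUP210, 330 and 325 TPM in shCon). Their adjusted p-values were 0.067 and 0.12 as deposited and 0.032 and 0.045 after that scaling. Quantile normalization gave 0.062 and 0.11, and with the GC and length trend removed the log2 fold changes were -0.26 and -0.17 (adjusted p = 0.19 and 0.35), against -0.48 and -0.33 as deposited.

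ERK-responsive genes outside the members had values in both directions. Of 32 chosen by name, 30 were listed and 20 tested, and 1 was called higher and 0 lower (5.0%, against 2.86% of all tested genes). At an unadjusted p under 0.05 (limma) 2 of the 20 were higher and 4 lower, against 18.4% and 5.95% of all tested genes. CCND1, encoding cyclin D1, which carries growth factor signals into the cell cycle, rose 2.14-fold. It was at 493 and 391 TPM in shNUP210 and 213 and 200.3 TPM in shCon (log2 1.08, SE 0.14, adjusted p = 0.030). That call held in 10 of 17 alternatives, the 4 other scalings among them, with adjusted p from 0.017 to 0.15, and not in any fit without a library. DUSP5, a nuclear ERK phosphatase induced by ERK, was at 79.8 and 72.6 TPM in shNUP210 and 144 and 123 TPM in shCon (log2 -0.80, adjusted p = 0.053), and it was called lower under each of the 4 other scalings (0.023 to 0.041). MYC was at 51.3 and 50.4 TPM in shNUP210 and 81.7 and 72.7 TPM in shCon (log2 -0.59, adjusted p = 0.096), and was called lower under 3 of those scalings. EGR1, an immediate early transcription factor of the ERK pathway, was at 4.88 and 3.07 TPM in shNUP210 and 14.0 and 10.2 TPM in shCon (log2 -1.40, adjusted p = 0.11), and reached the level required for testing only through shCon. Of the 10 published transcripts of a MAPK activity score 9 were listed and tested. Of these 1 was called higher (CCND1) and 0 lower (11.1%, against 2.86% of all tested genes). Both knockdown libraries were above both controls for 4 (44.4%) and below for 1 (11.1%), against 42.9% and 14.3% of all tested genes. The median log2 fold change was 0.26, near that of all genes. PHLDA1, DUSP4, EPHA2 and CCND1 had higher values in shNUP210, ETV4 had lower ones, and DUSP6, SPRY2, SPRY4 and ETV5 overlapped.

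**Figure D4:**
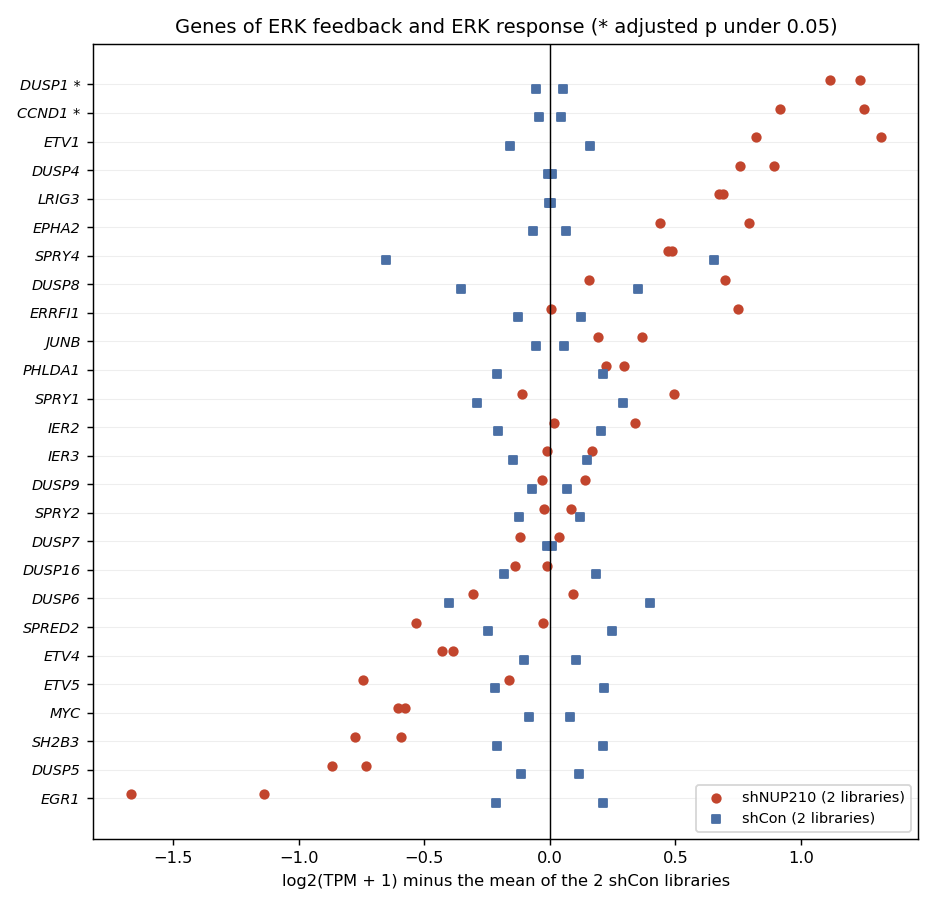
log2(TPM + 1) of 26 tested genes of ERK feedback and response in each library, less the mean of the 2 shCon libraries, in order of fold change; red circles are shNUP210 and blue squares shCon, and an asterisk marks an adjusted p under 0.05. DUSP1 and CCND1 are marked at the top, and DUSP5 and EGR1 lie at the bottom without a call.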

How the data were processed

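The authors deposited 1 table per library with TPM values for 20226 genes; that unit follows from totals of 999992.7 to 999997.8 in each library. The tools named per the submitters' processing notes are RSEM, STAR, Trimmomatic and DESeq, on hg38; their versions and roles and the annotation release are not given in the sources used here. Libraries were grouped by title. The test was limma 3.58.1 (R 4.3.3) on log2(TPM + 1) of the TPM as deposited, without covariates, with a mean-variance trend. It covered genes with at least 5 TPM in 2 libraries, two-sided with Benjamini-Hochberg adjustment. It was checked on simulated data with independent noise whose spread followed the level. The simulation held no shift common to all genes and no GC trend, so the check does not cover those features of the real libraries. A fold change on this scale understates that of low genes. TPM keep no depth, so no counting intervals are given. Other scalings, filters, pseudocounts, priors, a replicate block and fits without a library were tried; removal of the GC and length trend was chosen after seeing the data. Positions and exon overlaps come from GENCODE release 29 on GRCh38. The members, gene lists, level filter and scaling were chosen with earlier results of these data known. All 37 members were to be named, with up to 3 called genes per direction of each other list; genes named beyond that (VEGFA, MST1, FGF19, EIF4EBP1, RPS6KB2, DUSP5, MYC, EGR1, ETV4, ETV5, PHLDA1, KCNMB3, RP11-982M15.2 and those under other observations) were chosen after their values were seen.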

Additional observations from a re-analysis of the deposited data

How the results depend on the processing

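The TPM as deposited gave 181 genes higher and 109 lower. Trimmed-mean, median-ratio and upper-quartile scaling gave 72, 81 and 66 higher and 260, 248 and 279 lower, and quantile normalization 87 higher and 118 lower. No filter gave 9 and 5, a filter of 1 TPM in 2 libraries 30 and 27, limma without the mean-variance trend 0 and 0 (1816 and 474 at an unadjusted p under 0.05), and removal of the GC and length trend 136 and 67. Fits without a library gave 3 to 14 higher and 1 to 13 lower. Deviations of libraries with the same replicate number were nearly uncorrelated (0.0231). That value cannot tell whether those libraries were prepared together, which the labels do not state. The replicate block gave 31 higher and 32 lower. The single member called higher, DUSP1, became 0 under every alternative but the filter on the mean, and 0 members were called lower under any. The NUP210 log2 fold change was -1.49 with adjusted p of 0.13 without a filter, 0.078 with the filter of 1 TPM, 0.099 without the trend and 0.082 with the replicate block, and -1.62 to -1.37 when a library was left out (0.16 to 0.17).

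Medians by role moved as follows. Receptors had 0.25, 0.28, 0.22 and 0.21 under trimmed-mean, median-ratio, upper-quartile and quantile scaling, 0.18 without a filter, 0.34 with the filter of 1 TPM, 0.34 with the GC and length trend removed and 0.23 to 0.53 without a library. RAS to ERK had -0.25, -0.23, -0.28 and -0.26 under those scalings, -0.08 with the trend removed and -0.16 to -0.04 without a library. PI3K to mTOR had -0.22, -0.20, -0.25 and -0.19, then 0.36 without a filter and with that of 1 TPM, and -0.06 to 0.40 without a library. Feedback genes had 0.25, 0.27, 0.22 and 0.18, then 0.26 without a filter and with that of 1 TPM, 0.56 with a pseudocount of 0.1 and 0.30 to 0.82 without a library.

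Of the uncalled members 12 changed sign somewhere, at adjusted p of 0.29 or more. Under trimmed-mean, median-ratio, upper-quartile and quantile scaling the log2 fold changes were -0.23, -0.20, -0.26 and -0.19 for ERBB2, -0.05, -0.03, -0.08 and -0.12 for DDR1, -0.23, -0.21, -0.26 and -0.14 for HRAS, -0.20, -0.17, -0.22 and -0.26 for BRAF, -0.25, -0.23, -0.28 and -0.25 for MAP2K1, -0.22, -0.20, -0.25 and -0.28 for PIK3CB, and -0.23, -0.20, -0.26 and -0.20 for SPRY2. With the GC and length trend removed they were 0.18 for FGFR4, -0.11 for BRAF, -0.08 for MAP2K1, -0.15 for PIK3CB, 0.15 for PIK3R2, 0.06 for AKT1 and -0.12 for SPRY2. Without a library they ran from -0.11 to 0.18 for ERBB2, -0.10 to 0.04 for FGFR4, -0.16 to 0.52 for DDR1, -0.15 to 0.21 for HRAS, -0.05 to 0.12 for BRAF, -0.16 to 0.17 for MAP2K1, -0.06 to 0.10 for PIK3CB, -0.11 to 0.01 for PIK3R2, -0.58 to 0.48 for AKT1, -0.51 to 0.30 for DUSP6, -0.09 to 0.15 for SPRY2 and -0.17 to 1.13 for SPRY4. Of 108 recomputed family ratios 103 moved by no more than the spread between libraries. With 2 libraries a group, leaving out a library cannot move a ratio by more than that spread, so those recomputations show nothing of stability. The 5 ratios that moved by more did so under other pseudocounts. The cause of these shifts was not tested beyond what each setting changes by construction.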

Other observations

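Several genes of the same network that were not members had both shNUP210 libraries above both shCon libraries without passing the test. Among all tested genes 42.9% lay above in this way and 14.3% below. In the other RAS to ERK list 8 of 15 tested lay above and 1 below, and in the other PI3K to mTOR list 8 and 4 of 20. Among ligands it was 4 and 3 of 9, and in the ERK-responsive list 5 and 5 of 20. Those described here were chosen among the ones above. MRAS, a RAS relative that helps to activate RAF, was at 10.1 and 23.2 TPM in shNUP210 and 3.31 and 1.87 TPM in shCon (6.44-fold, limma adjusted p = 0.080). It reached the level required for testing only through the shNUP210 libraries, with knockdown libraries that differ from each other by more than the controls' level. PDPK1, the kinase that phosphorylates AKT in its activation loop, was at 27.0 and 35.6 TPM in shNUP210 and 14.5 and 13.5 TPM in shCon (2.24-fold, adjusted p = 0.074). RPS6KA3, encoding the ERK-activated kinase RSK2, was at 78.2 and 67.0 TPM in shNUP210 and 43.7 and 40.7 TPM in shCon (1.72-fold, adjusted p = 0.072). PDGFC, a platelet-derived growth factor, was at 12.6 and 14.2 TPM in shNUP210 and 2.47 and 7.15 TPM in shCon (adjusted p = 0.16), while its receptor gene PDGFRA stayed under the level required for testing and PDGFRB was at 12.6 and 7.44 TPM in shNUP210 and 7.37 and 8.59 TPM in shCon. LRIG3, of a family of membrane proteins related to the EGF receptor inhibitor LRIG1, was at 19.7 and 19.5 TPM in shNUP210 and 11.9 and 11.8 TPM in shCon (adjusted p = 0.16).

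DUSP9, an ERK phosphatase, had the highest mean over the 4 libraries (455 TPM) of the ERK-responsive list, at 491 and 436 TPM in shNUP210 and 467 and 424 TPM in shCon (adjusted p = 0.78), above every member of the DUSP family among the 37 genes.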
